A study of Homo sapiens with 6 samples.

Results

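The DUSP MAP kinase phosphatases described here are 10 genes, DUSP1, DUSP2, DUSP4, DUSP5, DUSP6, DUSP7, DUSP8, DUSP10, DUSP14 and DUSP16. They were taken by gene name from the deposited tables, where they make up 10 of 58735 rows. Each name matched 1 row. The 6 RNA-seq libraries came from MDA-MB-231 of wild-type genotype, an established line from a triple-negative breast tumour. The cells, kept in DMEM with serum, had been stained with PKH26, a membrane dye that is diluted as cells divide, and grown for 12 days. The brightest 1% were sorted as slow-cycling cells (SCC, 3 libraries), and dimmer cells as rapid-cycling cells (RCC, 3 libraries). The submitters call the RCC gate moderate in the protocol and low in the sample characteristics. All cells of both groups were of the 1 line and were stained, chased and sorted, so neither group is an unsorted control. The series asks how gene expression differs between the slow and the rapid cells.

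The ERK, JNK and p38 MAP kinases are active only while a threonine and a tyrosine in their activation loop are both phosphorylated. The DUSP phosphatases remove both phosphates. The family is usually divided by place and by substrate. DUSP1, DUSP2, DUSP4 and DUSP5 are nuclear enzymes whose genes are switched on rapidly by growth factors and stress, DUSP6 and DUSP7 act on ERK in the cytoplasm, and DUSP8, DUSP10 and DUSP16 act mainly on JNK and p38. DUSP14 is a small, atypical enzyme without the kinase-docking domain of the others. Several of the genes are themselves induced by the kinases their products switch off, so they serve as negative feedback and are often read as a sign of pathway activity. In breast cancer cells with an active RAS pathway, DUSP4 and DUSP6 are well known ERK-dependent transcripts.

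Summed counts ranged from 17655855 to 27831824 per library. SCC replicate 1 stood apart. Scaled by its degrees of freedom, the chi-square between its counts and those of either other SCC library was at least 21.0, and for every other pair within a group it was 3.31 to 4.30. Its deviation from SCC replicates 2 and 3 moved with the GC content of the gene, the share of G and C bases in the longest transcript. The median deviation in log2 CPM (CPM, counts scaled to the size of the library) was -0.25 in the tenth of genes with the lowest GC content and 0.42 in the tenth with the highest. The DUSP values that this library moves are given with and without it. Of the line's markers, VIM was at 145 to 161 FPKM (fragments scaled by gene length and library size) and CD44 at 33.3 to 36.6, ESR1 and CDH1 were at 0.0698 FPKM or less, and PGR had a count in 1 library only. ERBB2 was at 6.88 to 10.2 FPKM.

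Of the 10 genes, 1 was called higher in SCC and 0 were called lower. That gene was DUSP1, at 1.96 times its RCC level. A gene was called when its Benjamini-Hochberg adjusted p, from edgeR's quasi-likelihood test over all 15881 genes that passed a low-count filter, was under 0.05. By this rule 1.69% of all tested genes were higher and 0.378% lower. DUSP2 did not pass the filter. The other 9 members had at least 27 counts in every library, so their passing did not rest on 1 group. At an unadjusted p under 0.05, 3 members were higher (DUSP1, DUSP8 and DUSP10) and 0 lower, against 11.4% and 8.27% of all tested genes (19.7% in either direction). DESeq2 and limma also called 0 members lower. The median log2 fold change was 0.10 over the 9 members and 0.00 over all tested genes. These are bulk libraries, so more cells with a transcript and more transcript per cell cannot be told apart.

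**Figure D1:**
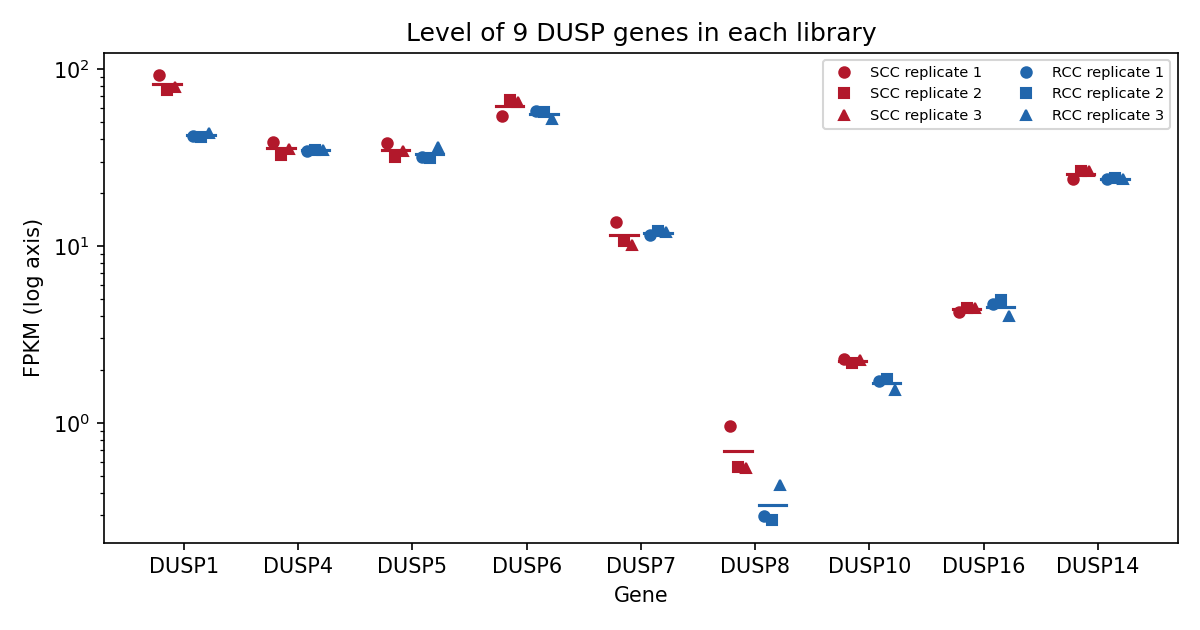
FPKM (log axis) of 9 DUSP genes in each library, with SCC in red, RCC in blue, replicates 1 to 3 as circle, square and triangle, and bars at the group means. DUSP1 is the gene whose groups lie farthest apart among the abundant members, at 75.9 to 92.3 FPKM in SCC and 41.5 to 43.8 in RCC. DUSP2 is not drawn because 5 of its 6 values are 0.

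DUSP1 (MKP-1; ENSG00000120129, chromosome 5, 172768090 to 172771195 on the minus strand of GRCh38) encodes the prototype of the family, a nuclear phosphatase with a preference for p38 and JNK that also acts on ERK. It was at 189, 154 and 159.5 CPM in SCC replicates 1 to 3 and at 84.7, 83.5 and 88.9 CPM in RCC replicates 1 to 3. All SCC libraries lay above all RCC libraries, and the lowest SCC value was well above the highest RCC value. On the log2 scale the difference was 0.97 (standard error 0.086, edgeR adjusted p = 1.5e-04), and the approximate 95% interval of the fold was 1.72 to 2.23. By p it ranked 23 of the 15881 tested genes. By fold it ranked 108 of the 268 genes called higher, so larger folds were common among them. Without SCC replicate 1 the log2 fold change of DUSP1 was 0.87 (edgeR adjusted p = 1.7e-12). The gene has a GC content of 55.1%, and that library deviated from the other SCC libraries by 0.27 in log2 CPM. The antisense gene that spans DUSP1, AC022217.3, shares no exon bases with it and had at most 4 counts in any library.

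DUSP1 and DUSP8 share a sequence feature. With all libraries DUSP8 had the largest fold of the tested members but was not called. Without SCC replicate 1 its log2 fold change was 0.72 (standard error 0.31, edgeR adjusted p = 0.184), beside 0.87 for DUSP1 (0.051, 1.7e-12). With an offset for GC content these were 0.77 (0.24, 0.087) and 0.88 (0.05, 1.9e-08). The DUSP8 values rest on 27 to 121 counts per library and are uncertain, as a pseudogene was at a like level. Whether the feature has a part in either level was not tested. The 250 bases before the transcription start were taken from RefSeq on GRCh38.p14. The set of RefSeq promoters used here held none for DUSP4 or DUSP5, which left 9 promoters for 8 of the 10 genes. They were searched on both strands for the cyclic AMP response element (CRE, TGACGTCA), its core (TGACG, counted also inside the full element), the AP-1 site (TGANTCA), the E-box (CACGTG), an ETS site (CCGGAAG), the TATA box (TATAAA), and the CArG box and NF-kB site by their usual consensus. Shown here are DUSP1, the gene that was called, DUSP8, and DUSP6. DUSP6 was the most abundant of the searched members without a match, and DUSP10, DUSP14 and DUSP16 had no match either. Each sequence runs 5′ to 3′ on the gene's strand and ends at the base before the start, with every motif match in capitals. The windows are chr5:172771196-172771445, chr11:1572272-1572521 and chr12:89352502-89352751, all on the minus strand.
DUSP1 promoter: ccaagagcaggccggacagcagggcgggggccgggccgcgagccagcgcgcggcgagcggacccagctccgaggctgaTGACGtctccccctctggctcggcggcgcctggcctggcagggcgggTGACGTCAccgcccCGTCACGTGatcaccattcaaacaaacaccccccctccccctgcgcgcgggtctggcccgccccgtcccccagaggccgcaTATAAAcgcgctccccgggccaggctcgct
DUSP8 promoter: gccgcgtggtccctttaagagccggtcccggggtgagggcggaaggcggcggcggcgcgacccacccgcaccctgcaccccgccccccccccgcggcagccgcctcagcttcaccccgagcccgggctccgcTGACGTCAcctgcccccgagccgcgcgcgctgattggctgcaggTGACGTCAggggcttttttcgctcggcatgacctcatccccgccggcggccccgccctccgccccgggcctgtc
DUSP6 promoter: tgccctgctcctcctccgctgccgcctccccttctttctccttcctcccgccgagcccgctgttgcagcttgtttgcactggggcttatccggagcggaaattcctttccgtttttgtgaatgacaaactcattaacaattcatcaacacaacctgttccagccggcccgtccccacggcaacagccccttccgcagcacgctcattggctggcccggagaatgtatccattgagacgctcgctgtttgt

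The DUSP1 window held 1 full CRE, 125 to 118 bases before the start, with a further core at 172 to 168 and another at 111 to 107 that runs into an E-box at 108 to 103. A TATA box, present in 10.7% of all windows, lay 30 to 25 bases before the start. The DUSP8 window held 2 full CREs, at 118 to 111 and 74 to 67 bases before the start. A full CRE was present in 1.65% of the 35116 RefSeq promoter windows of this length, and 2 or more in 0.0541%. Of the 8 members with a window, only DUSP1 and DUSP8 had the full element or its core. The core, counted also inside the full element, was in 21.2% of all windows. DUSP4 and DUSP5 had no window and were not searched. An E-box was also present upstream of DUSP2 and an NF-kB match upstream of DUSP7, at 6.34% and 9.96% of all windows. The AP-1 site, the ETS site and the CArG box, found in 6.57%, 8.52% and 1.16% of all windows, had no match in these stretches of the 8 genes. A match is a run of letters and no evidence of binding, and the deposited counts do not say which start was used: the RefSeq start of DUSP8 lies outside the gene as given in the tables, and that of DUSP6 inside it.

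**Figure D2:**
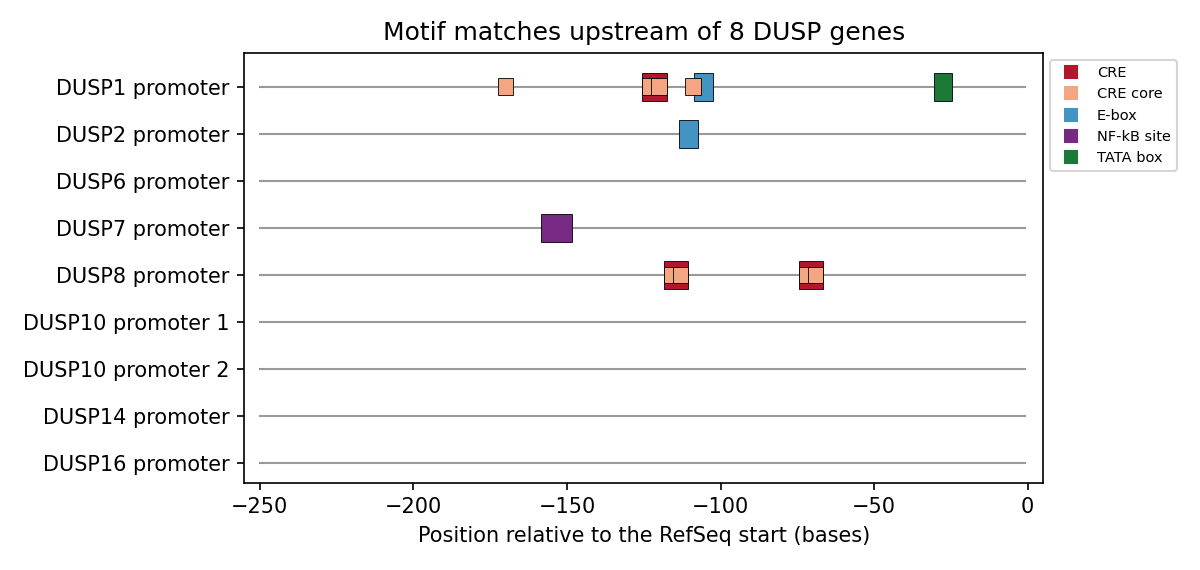
Position of motif matches, in bases relative to the RefSeq transcription start, in the 250 bases upstream of 8 DUSP genes (9 promoters). Boxes mark the full CRE (dark red), the CRE core (light red), the E-box (blue), the NF-kB match (purple) and the TATA box (green). Among these genes the full CRE appears upstream of DUSP1 and DUSP8 only, and DUSP4 and DUSP5 had no window.

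The other nuclear, inducible members did not move past the threshold. DUSP4 (MKP-2, ENSG00000120875, chromosome 8, 29333064 to 29350668) acts on ERK and JNK and is a common ERK feedback gene. It was at 286, 238 and 258 CPM in SCC and 251, 253 and 255 CPM in RCC, so that the RCC values lay inside the SCC range. Its log2 fold change was 0.04 (edgeR adjusted p = 0.761), and the 95% interval of the fold, 0.920 to 1.16, leaves out a difference of the size seen for DUSP1. DUSP5 (ENSG00000138166, chromosome 10, 110497838 to 110511544), a nuclear phosphatase specific to ERK, stood at 38.3, 31.9 and 34.3 FPKM in SCC and 31.8, 31.6 and 36.2 FPKM in RCC. The DUSP5 groups overlapped, with a fold of 1.06 (interval 0.921 to 1.21, edgeR adjusted p = 0.642). The signs of both small values were not stable: DUSP4 was at -0.03 without SCC replicate 1, and DUSP5 at -0.03 with an offset for GC content. Without SCC replicate 1 the log2 fold change of DUSP5 was 0.00031, beside 0.08 with all libraries. A pseudogene of DUSP5, DUSP5P1, was at 0.402 to 1.12 FPKM, far below DUSP5.

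DUSP2 (PAC-1, ENSG00000158050, chromosome 2, 96143166 to 96145440), a nuclear phosphatase best known from activated leukocytes, was almost undetected. It had 4 counts in SCC replicate 1, or 0.144 CPM of the unscaled total with a 95% Wilson interval of 0.0559 to 0.370, and 0 counts in the other 5 libraries. A count of 0 allows up to 0.132 to 0.170 CPM in the RCC libraries (3 counts of the total), so no difference was detectable at this depth. These limits cover counting error only. The summed CPM of 10 leukocyte markers was 4.71 in SCC replicate 1, 1.02 and 1.61 in the other SCC libraries, and 1.10 to 1.96 in RCC. Of the 10 markers, 1 passed the filter and 0 were at 0 in every library. PTPRC, their defining gene, was at 0.0157 to 0.211 FPKM with the highest value in the same SCC replicate 1 (log2 fold change 1.84, edgeR adjusted p = 0.206). The markers' part in the DUSP2 counts was not tested.

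Neither cytoplasmic ERK phosphatase passed the test, and SCC replicate 1 deviated in opposite directions for the pair. DUSP6 (MKP-3, ENSG00000139318, chromosome 12, 89347232 to 89353271), the best known feedback inhibitor of ERK, was at 256, 312 and 302 CPM in SCC and 271, 265 and 243 CPM in RCC. SCC replicates 2 and 3 were above every RCC library, and SCC replicate 1 fell within the RCC range. With all libraries the log2 fold change of DUSP6 was 0.16 (standard error 0.084, interval of the fold 0.983 to 1.27, edgeR adjusted p = 0.31). Without SCC replicate 1 it was 0.24 and was called higher (edgeR adjusted p = 0.00216). DUSP6 has a GC content of 46.7%, near the median of 48.1% over all tested genes, and SCC replicate 1 deviated by -0.26 in log2 CPM from the other SCC libraries. Exons of the antisense gene AC024909.2 overlap those of DUSP6, and its level, 1.71 to 2.20 FPKM in the SCC libraries and 2.27 to 2.92 in the RCC libraries, was far below that of DUSP6. Whether counting used strand is not stated.

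DUSP7 (ENSG00000164086, chromosome 3, 52048919 to 52056550), the close relative of DUSP6, was at 78.6, 59.9 and 57.4 CPM in SCC and 65.9, 68.1 and 68.0 CPM in RCC. Here SCC replicate 1 was the highest library and the other 2 SCC libraries were the lowest. Its log2 fold change was -0.04 (edgeR adjusted p = 0.853). It was -0.20 without SCC replicate 1 (edgeR adjusted p = 0.0501) and 0.03 without SCC replicate 3 (0.907). With all libraries and the GC offset it was -0.21 (0.0685), and with the replicate block added to that offset it was called lower (-0.21, edgeR adjusted p = 0.0461). DUSP7 has a GC content of 59.2%, and SCC replicate 1 deviated by 0.42.

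The JNK and p38 phosphatases were the least abundant of the detected members, and 2 of the 3 had groups that did not overlap. Such separation, with SCC higher, was seen for 4 of the 9 tested members (DUSP1, DUSP8, DUSP10 and DUSP14) and for 14.4% of all tested genes. Separation with SCC lower was seen for 0 of the 9, against 13.4% of all tested genes (27.8% in either direction). DUSP8 (ENSG00000184545, chromosome 11, 1554044 to 1571920), a phosphatase of JNK and p38 studied mostly in heart and brain, was at 4.49, 2.61 and 2.56 CPM in SCC and 1.39, 1.29 and 2.07 CPM in RCC. SCC replicate 1 was the highest and RCC replicate 3 came closest to the SCC libraries. The log2 fold change of DUSP8 was 1.05, its standard error 0.30 (interval of the fold 1.32 to 3.25), and the gene was not past the threshold (edgeR adjusted p = 0.0984). It rests on 27 to 121 counts per library. DUSP8 was called when SCC replicate 2 was left out (log2 fold change 1.16, edgeR adjusted p = 0.0494) and when the filter was reduced to 1 count per gene (0.00403), and its log2 fold change was 0.72 without SCC replicate 1 (0.184). Its GC content of 64.6% was the highest of the tested members, and so was the deviation of SCC replicate 1, at 0.78. The pseudogene DUSP8P5 had 0.421 to 1.17 FPKM in the SCC libraries and 0.706 to 1.27 in the RCC libraries, beside 0.553 to 0.958 and 0.281 to 0.446 FPKM for DUSP8. At such like levels reads that fit both could have been split and the DUSP8 values are uncertain.

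DUSP10 (MKP-5, ENSG00000143507, chromosome 1, 221701424 to 221742176), which acts on p38 and JNK and restrains inflammatory signalling, gave tight groups. It was at 6.79, 6.39 and 6.64 CPM in SCC and 5.09, 5.16 and 4.47 CPM in RCC. The SD of the SCC libraries was 0.201 CPM (n = 3), and all lay above RCC. The log2 fold change of DUSP10 was 0.43 (standard error 0.14, interval of the fold 1.08 to 1.67), and the gene was not past the threshold in edgeR (adjusted p = 0.146) or under any of 18 alternatives, of which the lowest adjusted p was 0.0736. DUSP16 (MKP-7, ENSG00000111266, chromosome 12, 12474210 to 12562383), a JNK phosphatase that shuttles between nucleus and cytoplasm, was at 24.5 to 25.7 CPM in SCC and 23.0 to 28.1 CPM in RCC, and the groups overlapped. Its fold was 0.967 (interval 0.833 to 1.12, edgeR adjusted p = 0.806).

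DUSP14 (MKP-6, ENSG00000276023, chromosome 17, 37489831 to 37513501), the small atypical member, was at 60.5, 66.8 and 66.7 CPM in SCC and 60.3, 60.2 and 60.4 CPM in RCC. The groups did not overlap, narrowly so at SCC replicate 1, which on the FPKM scale (23.8) was below the RCC libraries (23.9 to 24.2). Its fold was 1.07 (interval 0.960 to 1.20, edgeR adjusted p = 0.451). The log2 fold change of DUSP14 was 0.10 with all libraries and 0.15 without SCC replicate 1 (edgeR adjusted p = 0.154).

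**Figure D3:**
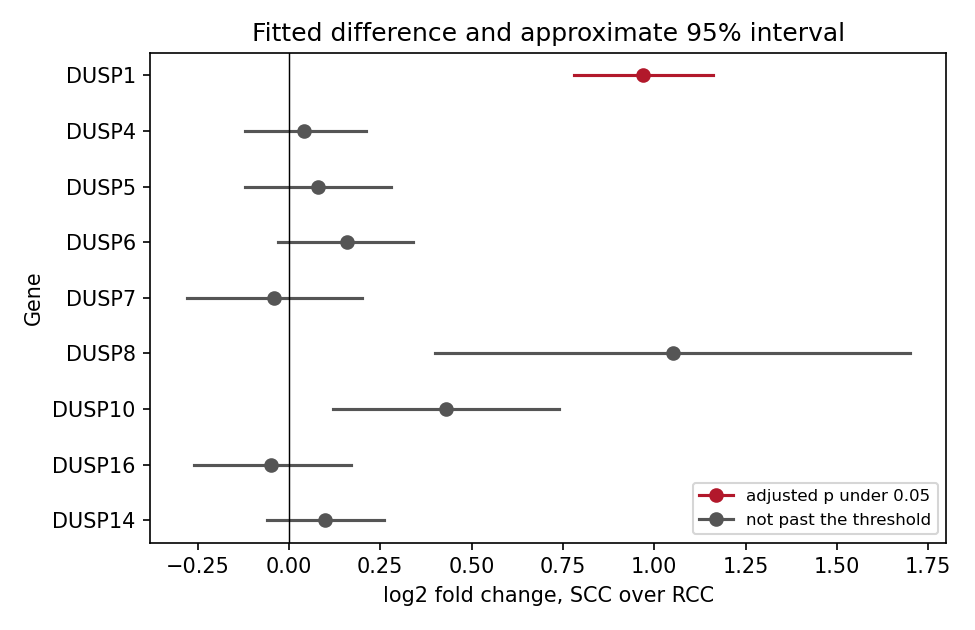
Fitted log2 fold change of SCC over RCC for 9 tested members (points) with its approximate 95% interval (lines), red where the edgeR adjusted p was under 0.05. DUSP1 alone is past the threshold at 0.97, DUSP8 has the widest interval (0.40 to 1.70), and the intervals of DUSP4, DUSP5, DUSP6, DUSP7, DUSP16 and DUSP14 include 0.

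Levels of different members can be compared per gene length, as FPKM. In RCC the order was DUSP6 (55.9 ± 3.16 FPKM, SD, n = 3), DUSP1 (42.3 ± 1.32), DUSP4 (34.7 ± 0.421), DUSP5 (33.2 ± 2.59), DUSP14, DUSP7, DUSP16, DUSP10, DUSP8 and DUSP2. In SCC the order was the same except that DUSP1 (82.3 ± 8.79 FPKM, SD, n = 3) stood above DUSP6 (62.1 ± 6.80). DUSP4 and DUSP5 overlapped in both groups and cannot be ordered, and no other neighbours in either order overlapped. The FPKM ratio of DUSP1 to DUSP6 was 1.70, 1.13 and 1.21 in SCC and 0.717, 0.724 and 0.840 in RCC. On FPKM, DUSP1 was thus above DUSP6 in every SCC library and below it in every RCC library. On CPM, DUSP1 was below DUSP6 in every library, at 189, 154 and 159.5 against 256, 312 and 302 in SCC. The length in FPKM is that of all annotated exons together, 2019 bases for DUSP1 and 4632 for DUSP6, so their order rests on it. The FPKM ratio of DUSP1 to DUSP4 was 2.31 ± 0.0797 in SCC and 1.22 ± 0.0355 in RCC (SD, n = 3). That to DUSP5 was 2.36 ± 0.0593 and 1.28 ± 0.0577 (SD, n = 3). For each of these 3 ratios, chosen after the values were seen, the groups did not overlap and the two-sided exact permutation p was 0.1, as was the adjusted value, the smallest that 3 against 3 libraries can give.

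Summed over the 10 genes, the family stood at 269, 252 and 258 FPKM in SCC and 208, 209 and 209 FPKM in RCC. DUSP1 made up 31.7% ± 2.31 of that sum in SCC and 20.3% ± 0.587 in RCC (SD, n = 3), a difference of 11.4 percentage points. Without DUSP1 the other 9 genes summed to 177 ± 1.53 FPKM in SCC and 166 ± 0.954 in RCC, so most of the difference in the sum lay in DUSP1. DUSP6 took 20.2% of the sum in SCC replicate 1, 25.2 to 26.6% in the other SCC libraries and 25.0 to 27.9% in RCC.

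**Figure D4:**
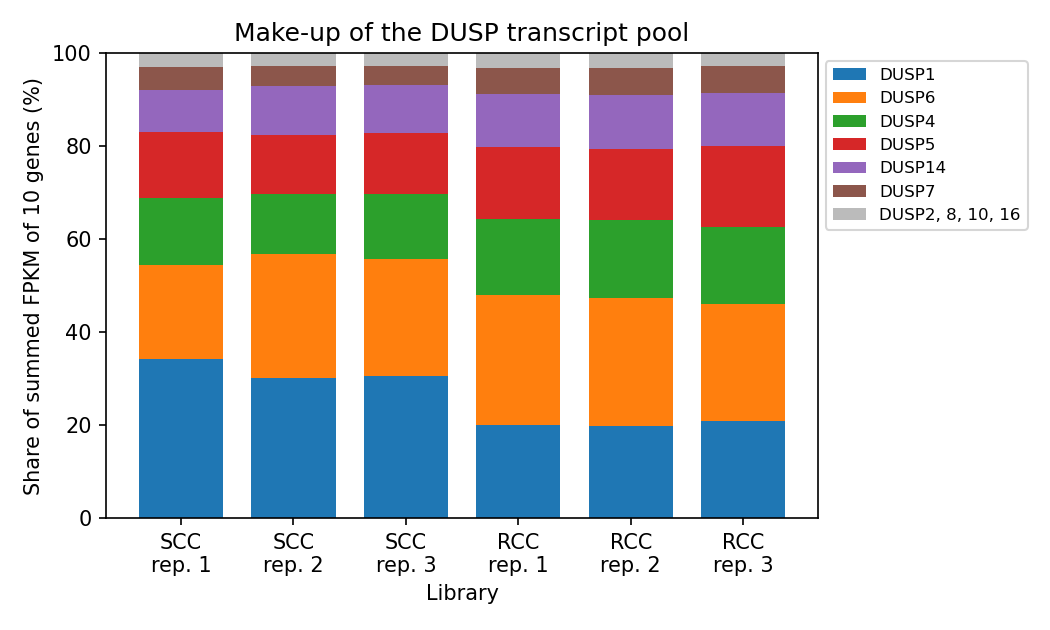
Share of each gene in the summed FPKM of the 10 DUSP genes (percent, stacked bars starting at 0), 1 bar per library. The DUSP1 share is 30.1 to 34.3% in the 3 SCC libraries and 19.9 to 21.0% in the 3 RCC libraries.

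The other genes of the MAP kinase pathways were taken from 8 lists. These held 115 genes, of which 101 were tested, 3 were called higher and 0 lower, against 1.69% and 0.378% of all tested genes. The counts of each list at an unadjusted p under 0.05, given next, stand against 11.4% of all tested genes up and 8.27% down. Neither DESeq2 nor limma called any of them lower. None of the 11 tested relatives in the dual-specificity family (DUSP3, DUSP9, DUSP11, DUSP12 and others) was called in either direction by edgeR, DESeq2 or limma, and 0 had an unadjusted p under 0.05. Their median log2 fold change was -0.02, and the one with the smallest p was DUSP18 (-0.38, edgeR adjusted p = 0.284).

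The ERK, JNK and p38 kinases are substrates of the DUSP enzymes, and the MAP kinase list was wider than these. Of 11 tested MAP kinase genes edgeR called 0, with 1 gene up and 1 down at an unadjusted p under 0.05. MAPK3, which encodes an ERK kinase, had a log2 fold change of 0.23 (edgeR adjusted p = 0.295), MAPK8, a JNK gene, -0.25 (0.177), and MAPK14, a p38 gene, -0.05 (0.659). Without SCC replicate 1 MAPK3 was at 0.07 and MAPK8 at -0.17. With the GC offset MAPK3 was at 0.02 and MAPK8 at -0.12. MAPK7, which encodes ERK5, had the smallest p (log2 fold change 0.51, edgeR adjusted p = 0.0801) and was called by DESeq2 (0.0218), without SCC replicate 1 (0.34, 0.0254) and in 7 of 18 alternatives in all. Of the MAP kinase kinases 0 of 7 were called, also at an unadjusted p, with MAP2K2 having the smallest p (0.23, edgeR adjusted p = 0.265). MAP2K2 was at 0.07 without SCC replicate 1 and at 0.03 with the GC offset. Among 17 tested RAS, RAF and adaptor genes 0 were called, with 4 up and 1 down at an unadjusted p under 0.05 (11.4% and 8.27% of all tested genes). The adaptor gene SHC1 had the smallest p of these (0.23, 0.12) and was called without SCC replicate 1 (0.17, edgeR adjusted p = 0.0214). MAPKAPK2, a kinase activated by p38, had the smallest p of 10 tested MAP kinase-activated kinases (0.28, 0.089), of which 0 were called and 2 were up and 0 down at an unadjusted p under 0.05. MAPKAPK2 was called without SCC replicate 1 (0.21, edgeR adjusted p = 0.0129) and with the filter reduced to 1 count per gene (0.0319). Of 6 other MAP kinase phosphatases 0 were called, with 1 up and 1 down at an unadjusted p under 0.05, and PPP2CB, a catalytic subunit of PP2A, had the smallest p (-0.23, 0.146). It was called lower with the GC offset (-0.22, edgeR adjusted p = 0.0472) and with the replicate block and that offset (0.0332).

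The 3 called pathway genes were MAP3K8, EGR1 and IER3. MAP3K8 (TPL2), a kinase that activates the ERK cascade downstream of inflammatory receptors, was the 1 gene called of 20 tested MAP3 kinases (5.00%, against 1.69% of all tested genes). Of the 20, 7 were up and 2 down at an unadjusted p under 0.05, against 11.4% and 8.27% of all tested genes. It was at 1.78, 1.74 and 1.71 FPKM in SCC and 0.754, 0.799 and 0.912 FPKM in RCC, groups that lay well apart (log2 fold change 1.09, standard error 0.16, edgeR adjusted p = 0.00467). Of 19 genes known to be induced by ERK, 2 were called higher (10.5%, against 1.69% of all tested genes) and 0 lower. At an unadjusted p under 0.05, 5 were up and 0 down, against 11.4% and 8.27% of all tested genes. EGR1, a zinc finger factor of the immediate early response, was at 92.6, 66.2 and 63.9 FPKM in SCC and 21.3, 19.5 and 20.1 FPKM in RCC, with no overlap (log2 fold change 1.88, edgeR adjusted p = 2.6e-05). IER3, an early response gene linked to ERK and survival, had a log2 fold change of 0.74 (0.00887). IER3 lost its call when RCC replicate 2 (0.0667) or 3 (0.0715) was left out, and by limma on log2(FPKM + 1) (0.0649), on log2(FPKM + 0.1) (0.067) and without a filter (0.262). Without SCC replicate 1, EGR1 was at 1.68 and IER3 at 0.57, both called (edgeR adjusted p = 2.1e-18 and 1.6e-08). SPRY4 and ETV5, which like DUSP6 are standard reporters of ERK output, were both at 0.02 (edgeR adjusted p = 0.914 and 0.882), and their signs flipped in 5 and 2 alternatives.

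The genes whose profile over the 6 libraries was closest to that of DUSP1, outside the lists, were MAFF and RHOB. Likeness was the root mean square difference of log2 CPM after centring each gene, which was 0.0423 for MAFF and 0.0575 for RHOB over 6 libraries. MAFF, a small MAF bZIP factor, had 90.9 to 118 CPM in the SCC libraries and 49.1 to 51.4 in the RCC libraries. RHOB, a small GTPase gene, had 169.6 ± 24.4 and 88.2 ± 1.30 CPM (SD, n = 3). Both were called higher (edgeR adjusted p = 3.6e-04 and 3.7e-04, the latter at a log2 fold change of 0.94), and like DUSP1 both were highest in SCC replicate 1. Without that library their log2 fold changes were 0.88 and 0.82, and both were called. The likeness was chosen on these libraries and is a description.

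**Figure D5:**
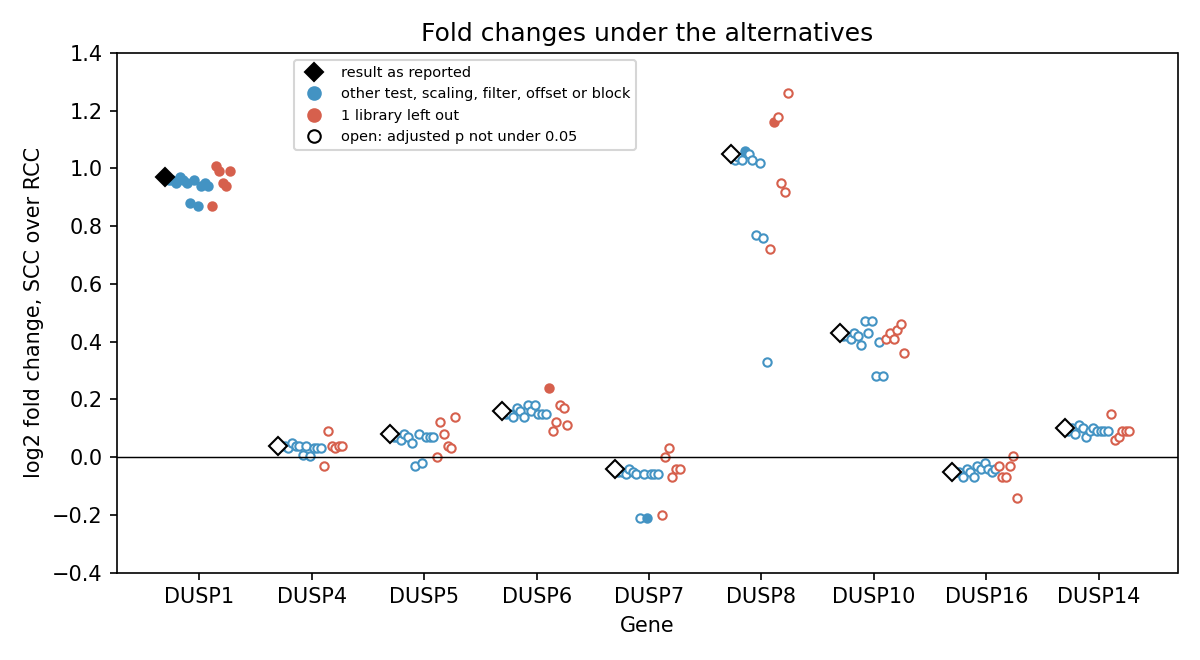
Log2 fold change of each tested member as reported (black-edged diamonds), under other tests, scalings, filters, offsets or the replicate block (blue circles) and with 1 library left out (red circles), with filled symbols where the adjusted p was under 0.05. All DUSP1 symbols are filled and none lies below 0.87, whereas DUSP8 ranges from 0.33 to 1.26 with 2 filled symbols. The 0.33 is from limma on log2(FPKM + 1) without a filter, where the added 1 exceeds every DUSP8 value and shrinks its fold. In its other fits the lowest value was 0.72, without SCC replicate 1. DUSP8 has 16 alternatives, as it did not pass the FPKM filter of limma.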

How the data were processed

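RNA-seq was compared between 3 SCC and 3 RCC libraries. Per the submitters' processing notes, HISAT2 2.0.5 and featureCounts 1.5.0-p3 were used. The genome build and the use of strand are not given in the sources used here. The authors deposited a table of whole-number counts, and one of FPKM values, with gene lengths. All 58735 rows matched GENCODE 29 on GRCh38 by gene ID and position. Each deposited FPKM value that was checked was the count over gene length and 1 constant per library. Values that rest on few counts in a library were not checked. Names of 27 rows, none of them a member, were restored by gene ID.

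Counts were filtered with filterByExpr (minimum count 10), scaled by TMM and tested with edgeR 4.0.16 in R 4.3.3 (glmQLFit, quasi-likelihood F test, two-sided, group only), with Benjamini-Hochberg adjustment over all tested genes. CPM uses TMM-scaled totals. Fold changes are SCC over RCC, standard errors are the log2 fold change over the square root of F, and 95% intervals are these with the t quantile. Alternatives were DESeq2 1.42.0, limma 3.58.1 on log2(FPKM + 1) or log2(FPKM + 0.1), RLE and upper-quartile scaling, other filters, offsets for gene length and GC content (lowess, span 0.3), the replicate block, and each library left out. The code was tested on simulated data. Named genes were all members; per pathway list the called genes, up to 3 per direction, or else the gene with the smallest p; 7 fixed pathway genes, 1 of which is not reported here; and the 2 genes most like each called member. Members and lists were chosen with earlier results of these data known. The labels number the replicates and do not say whether they come from separate cultures, so p-values measure the spread between these libraries.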

Additional observations from a re-analysis of the deposited data

How the results depend on the processing

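DUSP1 was called higher under all 18 alternatives, with log2 fold changes from 0.87 upward and adjusted p up to 0.0301 (limma without a filter). Members called higher numbered 2 instead of 1 with the filter reduced to 1 count per gene (DUSP8 added), and 1 to 2 across the fits without one library (DUSP6 without SCC replicate 1, DUSP8 without SCC replicate 2). DUSP7 was called lower, the 1 such member, with the replicate block and GC offset together (log2 fold change -0.21, adjusted p = 0.0461). Pathway genes called higher numbered 12 with that filter, 6 with the GC offset, 8 with the block and GC offset and 1 with limma without a filter, against 3, and 2 to 8 without one library (8 without SCC replicate 1, 7 without SCC replicate 2). Pathway genes called lower numbered 1 with the GC offset and 1 with the block and GC offset, against 0, and 0 to 2 without one library. The share difference of DUSP1 was 7.02 percentage points on CPM against 11.4 on FPKM, since CPM gives more weight to long transcripts, and 10.1 to 12.2 without one library. Signs reversed for values near 0: DUSP4 without SCC replicate 1 (-0.03, up to 0.09 without another library), DUSP5 with the GC offset (-0.03) and with block and GC offset (-0.02), DUSP7 without SCC replicates 2 (0.0016) and 3 (0.03, down to -0.20), DUSP16 without RCC replicate 2 (0.0032, down to -0.14), ETV5 without SCC replicate 1 (-0.0058) and RCC replicate 3 (-0.02, up to 0.07), and SPRY4 with upper-quartile scaling (-0.00083), the GC offset (-0.006), the block and GC offset (-0.0065), without SCC replicate 1 (-0.04) and without RCC replicate 2 (-0.03, up to 0.05). The cause was not tested. MAP3K8, MAFF and RHOB each lost the call in 1 alternative, limma without a filter (adjusted p = 0.14, 0.0531 and 0.0544). Over all genes, higher calls ranged from 48 to 995 and lower calls from 1 to 432, against 268 and 60. Deviations from the group mean of replicates with the same number had correlations of -0.01, 0.02 and -0.08. SCC replicate 1 stood apart and weighs on the mean from which every SCC deviation is taken. These correlations therefore cannot decide whether the numbers pair libraries, and the main fit took them as unpaired. With the replicate block alone 350 genes were higher and 106 lower, and the members called were DUSP1 only, as without it. Depth limits DUSP2, which has at most 4 counts per library.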
